A study of Mus musculus with 10 samples.

Results

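The Cd300 genes of the mouse were followed as a family across 10 4T1 tumors. The members were 9 genes taken by their symbols in the expression table, namely Cd300a, Cd300c2, Cd300e, Cd300lb, Cd300ld, Cd300ld3, Cd300ld4, Cd300lf and Cd300lg, out of 21959 genes listed there. The table held 3 further family genes, Cd300c, Cd300ld2 and Cd300ld5, whose read counts lay between 0 and 17 and did not pass the filter on low counts, whereas all 9 members passed it. The tumors came from female BALB/c mice aged 5 to 6 weeks, in which cells of 4T1, a mammary carcinoma line of that strain, were injected under the skin of the abdomen. The 5 mice of the exercise group (E) ran on their own accord for 21 days, the 5 mice of the non-exercise group (NE) were kept under normal husbandry for the same time, and mRNA of the tumor tissue was sequenced. The mice carried no engineered allele that the sources name, so every group shared the same cell line and host strain and differed in running. The question asked here was which Cd300 genes varied together over the tumors, and with which myeloid or endothelial genes.

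CD300 proteins are cell surface receptors with an immunoglobulin-like domain, carried chiefly by myeloid cells, and several of them bind phospholipids or other lipids. CD300A and CD300LF carry inhibitory motifs in their tails and recruit phosphatases such as those encoded by Ptpn6 and Inpp5d. Receptors with short tails, such as those of Cd300c2, Cd300lb, Cd300ld and Cd300e, signal through adaptor proteins with activating motifs, among them DAP12 (Tyrobp) and the Fc receptor gamma chain (Fcer1g). CD300E is known from monocytes, and CD300LG, also called nepmucin, is known from endothelial cells rather than from myeloid cells. The tumors are bulk tissue, so that fewer cells of a type and less RNA per cell cannot be told apart in any value given here.

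In the coordinates of the expression table, whose genome build is not named, 8 members lay in a cluster on chromosome 11 between 114780867 (the start of Cd300a) and 115024818 (the end of Cd300lf). Cd300lg lay on the same chromosome at 101932335 to 101946446, which is 12834421 bases from Cd300a. RefSeq promoter sequences (build GRCm38.p6) were matched by symbol for 8 of 9 members; none was used for Cd300lg. The 250 bases before each start were searched on both strands for 4 short motifs: GAGGAA, the core of sites of the myeloid factor PU.1; TTNNGNAA, a loose form of the C/EBP site; TGTGGT, the core of RUNX sites; and TATAAA, the TATA box. The first was present in 6 of the 8 promoters (Cd300a, Cd300c2, Cd300ld, Cd300ld3, Cd300ld4 and Cd300lf), beside 23.3% of 32851 promoters of the same length. The C/EBP form was present in 3 (Cd300a, Cd300ld and Cd300lf), beside 36.8% of all promoters. TGTGGT was found only in Cd300c2 (4614 of the 32851 promoters), where it follows directly on a GAGGAA match without overlap, and TATAAA in Cd300lb and Cd300lf (12.4%). None of the 4 motifs was found in the window of Cd300e, which says only that these letters are not in it. The 200 bases before each start are printed here, 5′ to 3′ on the gene's strand and with the matches of both strands in capitals (a further C/EBP match of Cd300a lies before the printed bases), because they show how Cd300ld3 and Cd300ld4 share a promoter that Cd300ld resembles in part and the other members do not.
Cd300a (chr11:114889841-114890040, + strand): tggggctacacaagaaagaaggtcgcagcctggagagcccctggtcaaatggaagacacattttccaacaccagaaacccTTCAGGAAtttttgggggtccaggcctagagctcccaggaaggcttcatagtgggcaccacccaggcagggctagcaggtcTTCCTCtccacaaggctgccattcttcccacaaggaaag
Cd300c2 (chr11:115001881-115002080, - strand): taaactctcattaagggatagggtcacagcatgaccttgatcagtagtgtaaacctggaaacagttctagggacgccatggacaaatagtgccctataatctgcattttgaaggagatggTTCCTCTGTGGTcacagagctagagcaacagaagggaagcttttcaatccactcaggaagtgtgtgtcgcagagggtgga
Cd300ld (chr11:114989887-114990086, - strand): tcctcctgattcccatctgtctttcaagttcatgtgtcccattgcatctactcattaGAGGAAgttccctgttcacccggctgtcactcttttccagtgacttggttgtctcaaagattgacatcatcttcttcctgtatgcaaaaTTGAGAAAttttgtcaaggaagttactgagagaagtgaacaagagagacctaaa
Cd300ld3 (chr11:115048331-115048530, - strand): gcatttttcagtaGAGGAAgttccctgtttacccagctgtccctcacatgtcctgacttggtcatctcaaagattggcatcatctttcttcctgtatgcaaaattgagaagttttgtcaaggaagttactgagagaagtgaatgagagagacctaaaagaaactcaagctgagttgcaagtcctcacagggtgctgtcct
Cd300ld4 (chr11:115026934-115027133, - strand): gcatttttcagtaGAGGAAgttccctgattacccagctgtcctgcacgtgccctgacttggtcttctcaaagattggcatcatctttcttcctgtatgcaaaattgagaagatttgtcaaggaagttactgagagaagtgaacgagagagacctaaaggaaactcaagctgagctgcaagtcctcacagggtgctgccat
Cd300lb (chr11:114934372-114934571, - strand): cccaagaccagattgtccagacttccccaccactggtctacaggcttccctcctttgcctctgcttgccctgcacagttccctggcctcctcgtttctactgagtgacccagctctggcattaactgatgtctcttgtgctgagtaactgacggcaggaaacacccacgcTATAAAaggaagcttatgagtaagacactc
Cd300lf (chr11:115133993-115134192, - strand): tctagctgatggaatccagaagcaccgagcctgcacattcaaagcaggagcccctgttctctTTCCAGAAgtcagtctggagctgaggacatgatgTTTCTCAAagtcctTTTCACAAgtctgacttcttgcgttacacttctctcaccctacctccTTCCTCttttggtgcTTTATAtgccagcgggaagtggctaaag
Cd300e (chr11:115062040-115062239, - strand): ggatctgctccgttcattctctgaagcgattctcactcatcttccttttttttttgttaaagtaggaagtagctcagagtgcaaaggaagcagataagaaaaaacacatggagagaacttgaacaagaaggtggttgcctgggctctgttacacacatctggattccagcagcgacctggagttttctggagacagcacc

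The upstream bases of Cd300ld3 and Cd300ld4 were 94.8% identical, those of Cd300ld and Cd300ld4 61.2% and those of Cd300a and Cd300lb 45.3%. The likeness extended into the transcripts. The coding sequences of Cd300ld3 and Cd300ld4 (GENCODE annotation of GRCm38, not the coordinates of the table) were 99.5% identical, and those of Cd300ld4 and Cd300ld5 99.9%. Of all stretches of 50 bases in the transcripts, 93.8% of those of Cd300ld4 and 82.1% of those of Cd300ld3 also occurred in another family gene, against 7.16% for Cd300c2, 3.89% for Cd300ld, 1.91% for Cd300lf, 1.9% for Cd300a and 0% for Cd300e, Cd300lb and Cd300lg. How the counting treated reads that fit several copies is not given in the sources used here, so the split of reads between Cd300ld3, Cd300ld4 and Cd300ld5 is uncertain. Their sum is given too for the group difference, the pairs of members and the macrophage score.

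The libraries held between 15045613 and 23092251 counted reads. Macrophage markers were present (12 of 12 passed the filter, with C1qb at a mean FPKM of 290, the unit being fragments per kilobase of transcript scaled to library size). Of 9 epithelial markers, 3 passed (Epcam, Krt19 and Cdh1), and Cldn3 and Cldn4 had mean FPKM of 0.016 and 0.028. Some tumors stood apart. NE1 had the lowest score (the mean of log2(CPM + 1) over a marker list) for 13 of 16 lists, among them macrophages at 5.20 against 6.28 to 7.36 in the other tumors. NE4 had the highest scores for skeletal muscle (9.76, with 27630.0 summed CPM of 12 markers) and capillary endothelium (3.73). E5 had the highest macrophage (7.36) and neutrophil (3.69) scores. Many of the results that rest on these tumors are given with and without them.

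By level, measured in FPKM and so per length, Cd300c2 led the family. Its FPKM were 27.5, 25.8, 18.65, 22.96 and 38.6 in E1 to E5 and 11.2, 25.7, 29.1, 30.0 and 23.95 in NE1 to NE5. Cd300ld, the next, had FPKM of 12.4, 10.5, 6.53, 11.6 and 19.25 in E and 3.18, 10.35, 12.5, 14.9 and 12.6 in NE. In both genes NE1 was lowest and E5 highest, and the groups overlapped. Cd300lb (mean 6.54 FPKM over 10 tumors, 3.09 to 9.57), the inhibitory Cd300lf (5.10 ± 1.47, SD, n = 10) and the inhibitory Cd300a (3.78 ± 1.32) followed, then Cd300e (2.90 ± 1.61), Cd300ld4 (1.62 ± 0.787), Cd300lg (1.37 ± 0.837) and Cd300ld3 (0.722 ± 0.594). Each step in this order exceeded the spread over tumors by an exact sign-flip permutation test on log2(FPKM + 1) (two-sided, p between 0.00195, the smallest possible with 10 tumors, and 0.0332), except those from Cd300a to Cd300e (exact p = 0.201) and from Cd300ld4 to Cd300lg (exact p = 0.182). These p-values were not adjusted for the 8 steps. Between the lowest and the highest tumor the level of a member changed least in Cd300lf (2.80-fold in CPM) and most in Cd300lg (6.39-fold), leaving aside Cd300ld3, which had no read in E1. A count of 0 there allows up to 0.145 CPM (3 reads), for counting error alone.

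**Figure D1:**
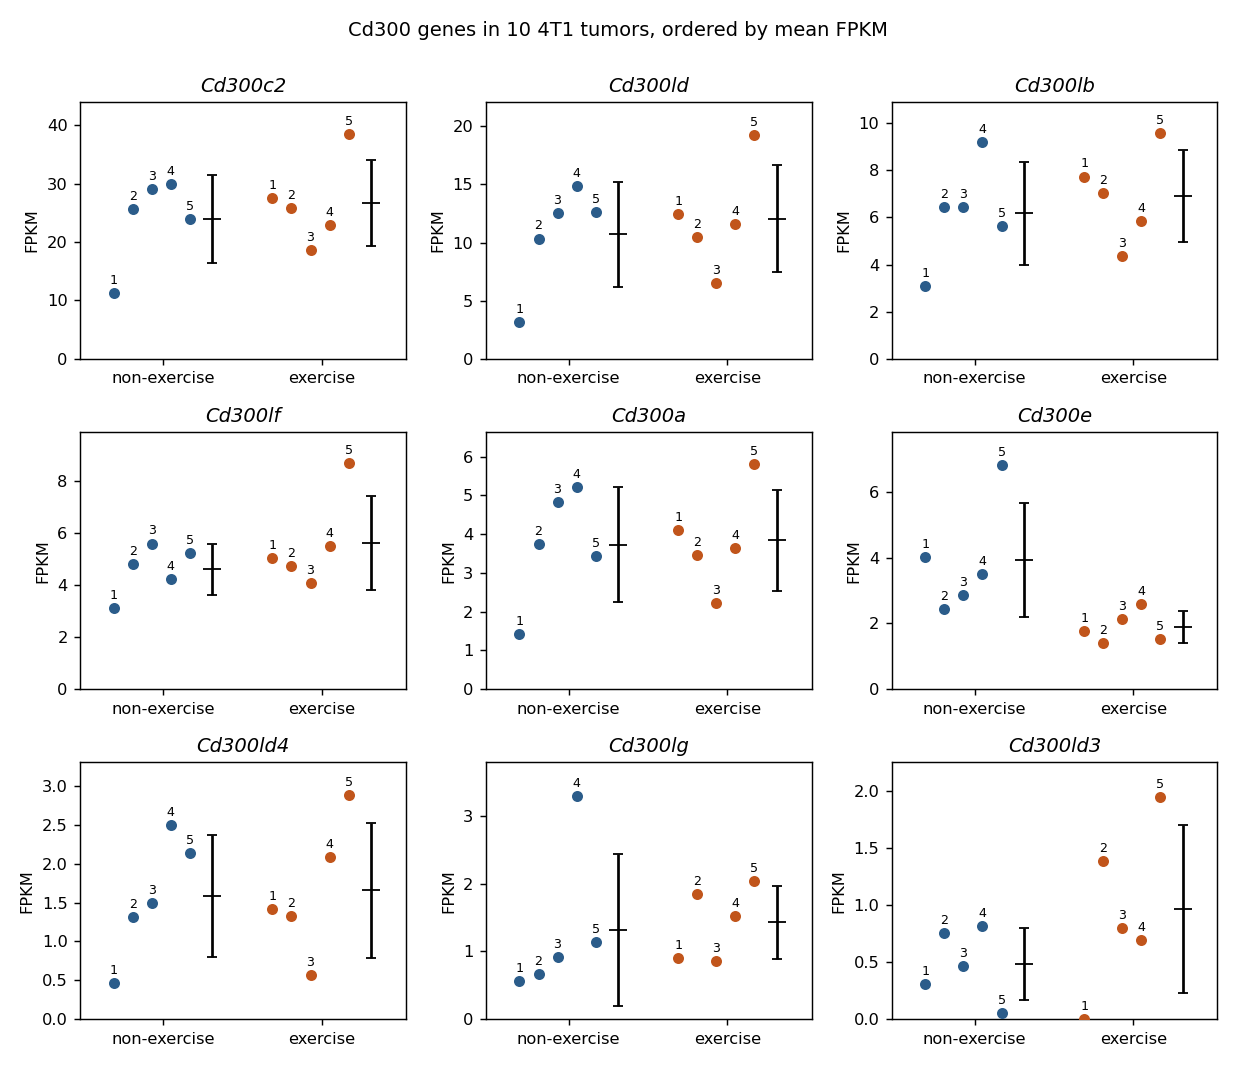
FPKM of each Cd300 gene (y axes, 1 panel a gene) in the 5 non-exercise and 5 exercise tumors (points, numbered by replicate); the bars beside them are the mean ± SD of the group. Tumor 1 of the non-exercise group is lowest and tumor 5 of the exercise group highest in Cd300c2, Cd300ld, Cd300lb, Cd300lf, Cd300a and Cd300ld4, while Cd300e is highest in tumor 5 of the non-exercise group and Cd300lg in tumor 4.

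The summed FPKM of the 9 genes ranged from 27.35 in NE1 to 90.3 in E5. The share of Cd300c2 lay between 39.2% and 46.4%, that of Cd300lb between 9.22% and 12.7% and that of Cd300a between 5.18% and 7.51%. Cd300ld held 16.3% to 21.3% in 9 tumors and 11.6% in NE1. The share of Cd300lf ran from 5.72% to 11.35%, that of Cd300ld4 from 1.42% to 3.70%, that of Cd300lg from 1.18% to 4.48% and that of Cd300ld3 from 0% to 2.41%. Cd300e had shares of 14.6% in NE1 and 11.2% in NE5, and 1.69% to 5.32% in the other tumors.

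**Figure D2:**
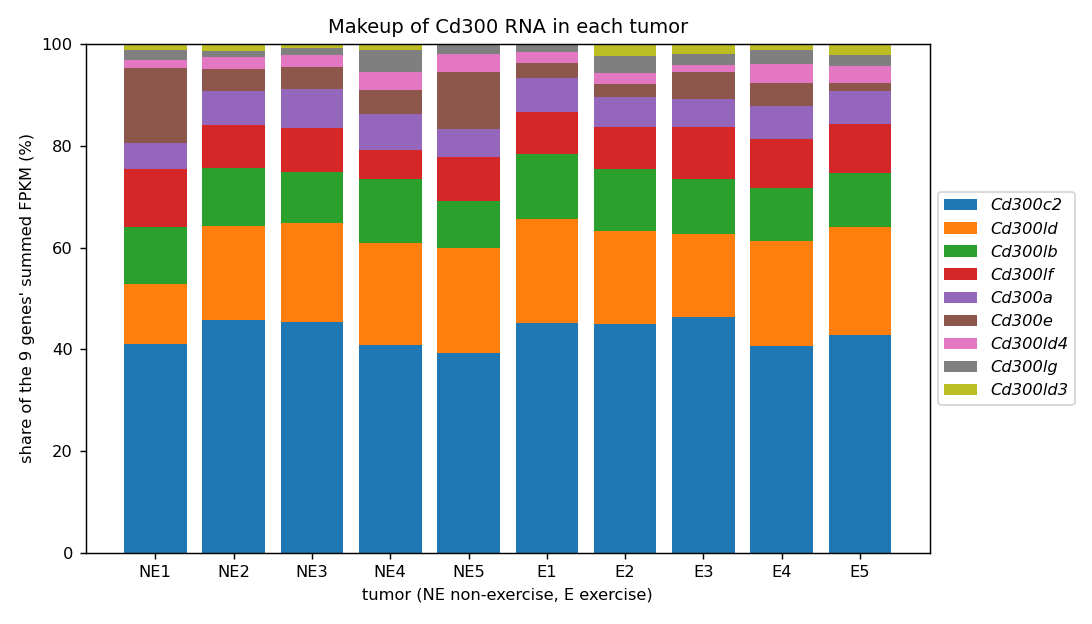
Share of each Cd300 gene in the summed FPKM of the 9 genes (y axis, %), in 1 stacked bar per tumor (x axis). Cd300c2 makes up 39.2% to 46.4% of every bar, and the Cd300e segment is widest in NE1 and NE5.

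The groups were compared with edgeR's quasi-likelihood test over 13517 genes, with calls at an adjusted p (FDR) up to 0.05 where the level also differed by 2-fold or more. No member was called, nor any other gene (0.0% called; 657 genes or 4.86%, Cd300e as the only member, at an unadjusted p of at most 0.05). DESeq2's Wald test called no member either, with an FDR of 0.242 for Cd300e. The values of E and NE overlapped for all 9 members, whereas 0.725% of all tested genes did not overlap. Cd300e was the member with the largest distance. Its FPKM were 1.76, 1.39, 2.14, 2.58 and 1.53 in E and 4.00, 2.43, 2.87, 3.51 and 6.83 in NE, so that the groups overlapped by a single pair, E4 and NE2. The log2 fold change of Cd300e (E minus NE) was -1.09 ± 0.295 (standard error, FDR 0.897). An exact permutation test of its log2(CPM + 1) alone gave p = 0.0159 (two-sided, n = 5 and 5, smallest possible p 0.00794). The other 8 members had log2 fold changes between -0.0022 (Cd300a) and 0.94 ± 0.813 (Cd300ld3), all with FDR of 0.897 or more. For the summed reads of Cd300ld3, Cd300ld4 and Cd300ld5 it was 0.312 ± 0.448 (FDR 0.933). Setting Cd300e against each of the other members in the same tumor gave differences of the log2 ratio (E minus NE) between -1.18 and -0.89, with exact permutation p between 0.0238 (over Cd300ld3 and over Cd300lf) and 0.143 (over Cd300a, n = 5 and 5, not adjusted for the 8 ratios).

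Over the 10 tumors, 5 members moved as a block. Pairs were called linked when each gene had a slope on the log2(CPM + 1) of the other at an FDR of at most 0.05 over all genes tested (edgeR's quasi-likelihood test), and 10 of 36 pairs were, which are all the pairs among Cd300a, Cd300c2, Cd300lb, Cd300ld and Cd300ld4. Their Pearson r was 0.826 to 0.978 (median 0.943, permutation p at most 0.003) and Spearman's rho 0.60 to 0.964 (permutation p at most 0.0716). The closest pair was the inhibitory Cd300a and the activating Cd300c2, with r = 0.978 (permutation p = 1e-05, the smallest that 100000 permutations can give), rho = 0.952 (permutation p = 0.00015) and an FDR of at most 0.00033. Cd300lb, which encodes an activating receptor, had r of 0.953 with Cd300a and 0.956 with Cd300c2. Without the 2 tumors farthest from the median, the 10 values of r were 0.603 to 0.928, and centred on the means of E and NE they were 0.836 to 0.984. Such slopes were common among all genes: 10.9% of the other genes had a slope on Cd300a, 9.44% on Cd300c2, 12.0% on Cd300lb, 9.0% on Cd300ld and 3.38% on Cd300ld4. The number of linked pairs fell to 5 without NE1 and to 6 without E5, and the links among Cd300a, Cd300c2, Cd300lb and Cd300ld, except that of Cd300lb with Cd300ld without NE1, remained in both. Without NE1 and NE4 together, 4 pairs were linked. The study speaks of matched pairs of tumors without saying which tumors form a pair, and with the replicate number as a block 6 pairs were linked, which are those among Cd300a, Cd300c2, Cd300lb and Cd300ld.

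Members can also be set side by side by their place and their sequence. The neighbours Cd300c2 and Cd300ld lie 6.80 kb apart and had r = 0.974, and Cd300ld and Cd300ld4 share 77.3% of their coding sequence and had r = 0.909. Cd300e and Cd300ld3 lie 3.51 kb apart and had r = -0.591, and the near-identical Cd300ld3 and Cd300ld4 had r = 0.275, while Cd300a and Cd300c2 are separated by 92.1 kb and share 57.6% of their coding sequence. These are descriptions over 10 tumors, and the value for Cd300ld3 rests on 0 to 25 reads a tumor. When the reads of Cd300ld3, Cd300ld4 and Cd300ld5 were summed (15 to 69 reads a tumor), the sum had r of 0.835 with Cd300a, 0.846 with Cd300c2, 0.843 with Cd300lb and 0.869 with Cd300ld, and 11 pairs were linked, the additional pair being that of the sum with Cd300lg. Cd300ld3 alone had no link, and none of the other tested genes had a slope on it (0.0%; 704 of 13517 genes at an unadjusted p of at most 0.05).

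**Figure D3:**
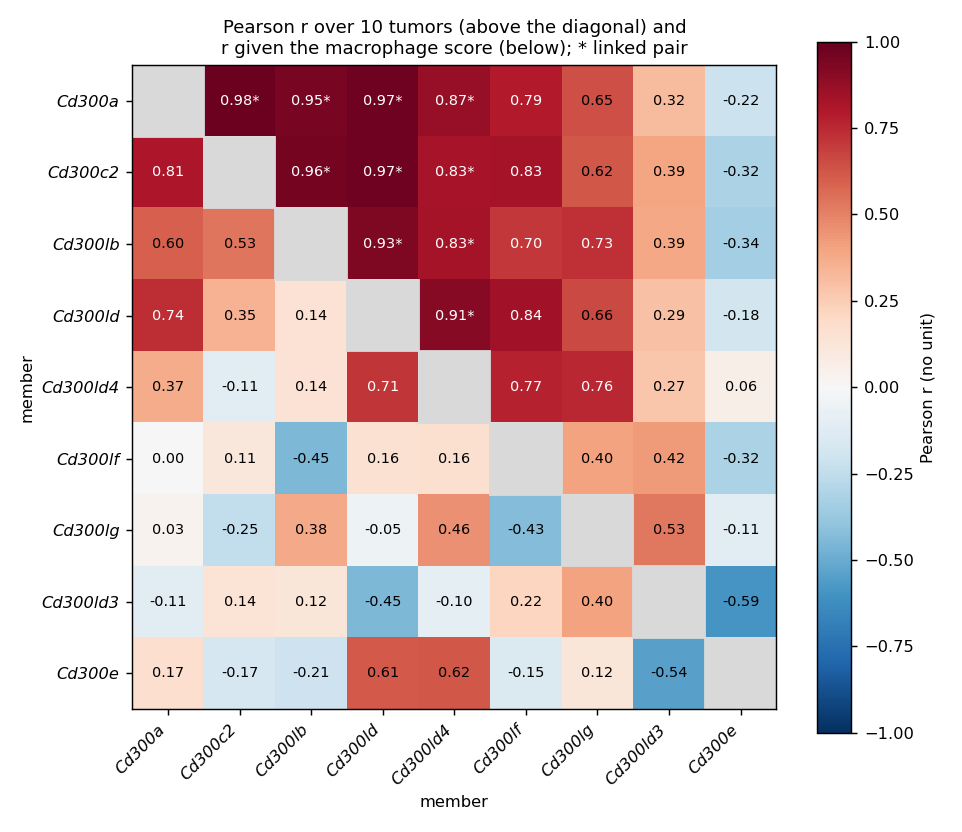
Pearson r of log2(CPM + 1) over the 10 tumors for each pair of members (above the diagonal, stars for the 10 linked pairs) and after the macrophage score was removed from both genes (below it). The 5 genes at the upper left have r of 0.826 to 0.978, which becomes -0.106 to 0.809 below the diagonal, and the column of Cd300e lies between -0.591 and 0.057.

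The block followed the macrophage markers. The macrophage score was the mean log2(CPM + 1) of 12 genes, among them Adgre1 (F4/80), Csf1r, Mrc1 and the complement genes C1qa, C1qb and C1qc. Each of the 12 is part of the score, so a slope of such a gene on it is no separate evidence that the markers move together. Of the 12, 10 had a rising slope on this score, and Cd14 (FDR 0.155) and Msr1 (FDR 0.169) did not. These 2 also had the lowest r with Cd300c2 in the list, 0.506 for Cd14 and 0.708 for Msr1. A slope on it at an FDR of at most 0.05 was found for 6 members, namely the 5 of the block and Cd300lf, where 8.06% of all tested genes had a rising slope. Cd300ld rose by 1.26 ± 0.0889 on the log2 scale per unit of the score (FDR 5.4e-05, r = 0.984, permutation p = 2e-05, rho = 0.879, permutation p = 0.00148). Cd300c2 rose by 0.83 ± 0.0746 (FDR 0.00014, r = 0.976), Cd300a by 1.01 ± 0.131 (FDR 0.00091, r = 0.941), Cd300lb by 0.82 ± 0.108 (FDR 0.00096, r = 0.939) and Cd300ld4 by 1.37 ± 0.271 (FDR 0.0095, r = 0.858). For these 5 genes rho was 0.77 to 0.879 (permutation p at most 0.0128), and r was 0.836 to 0.944 without E5 and NE1, the tumors with the extreme scores. The summed reads of Cd300ld3, Cd300ld4 and Cd300ld5 had r = 0.873 with the score over the 10 tumors. Without NE1 alone the slope of Cd300ld4 no longer passed (FDR 0.0979), and 4 members did. Without NE1 and NE4 together, Cd300c2, Cd300lb, Cd300ld and Cd300lf passed, and Cd300a (FDR 0.0679) and Cd300ld4 (FDR 0.162) did not. With the replicate number as a block, Cd300a, Cd300c2, Cd300lb and Cd300ld passed, and Cd300ld4 (FDR 0.150) and Cd300lf (FDR 0.193) did not. The closest single macrophage gene to Cd300c2 was Csf1r, the receptor of the macrophage growth factor, with r = 0.980.

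With the macrophage score held in the model, none of the 36 pairs was linked (lowest FDR of the larger direction 0.67). The block genes had r of 0.858 to 0.984 with this score, so over 10 tumors this fit could hardly call a link among them. The correlations of what remained had a median of 0.451 over the 10 pairs of the block. The highest were 0.809 for Cd300a with Cd300c2, 0.739 for Cd300a with Cd300ld and 0.714 for Cd300ld with Cd300ld4. The log2 fold changes between E and NE in this fit were -0.26 ± 0.115 for Cd300a, -0.11 ± 0.0746 for Cd300c2, -0.098 ± 0.117 for Cd300lb, -0.17 ± 0.0768 for Cd300ld, -0.33 ± 0.265 for Cd300ld4 and -0.12 ± 0.380 for Cd300lg. They were 0.066 ± 0.138 for Cd300lf and 0.72 ± 0.806 for Cd300ld3. None passed the test (lowest FDR 0.566).

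Other leukocyte scores shared this pattern and were themselves correlated with the macrophage score (r of 0.915 for monocytes and 0.947 for the pan-leukocyte list), so their parts cannot be told apart here. On the monocyte score, slopes passed for the 5 block genes and for Cd300lg (FDR 0.00096 to 0.0174; 11.0% of all tested genes), for 3 of the 6 without NE1, for 4 with the replicate number as a block, for 0 without NE1 and NE4, and for 0 with the macrophage score held (lowest FDR 0.275). The monocyte score, the mean of 12 genes, had r = 0.858 with the skeletal muscle score and was highest in NE4. Its genes differed in r with Cd300lg, from 0.124 (Vcan), 0.180 (Cx3cr1) and 0.356 (Plac8) to 0.675 (Eno3, 33.8 to 1012 CPM) and 0.917 (Ace). On the pan-leukocyte score the 5 block genes passed (FDR 0.00024 to 0.0379, 7.66% of all genes), on the dendritic cell score Cd300a, Cd300c2, Cd300lb and Cd300ld did (6.67%), and on the T and NK cell score Cd300a and Cd300ld (2.67%). Without NE1 and NE4, r with the T and NK cell score fell from 0.851 to 0.508 for Cd300a and from 0.855 to 0.478 for Cd300ld. The fibroblast score, which had r = 0.912 with the macrophage score, gave slopes for Cd300c2, Cd300lb, Cd300ld, Cd300ld4 and Cd300lf (FDR 0.0153 to 0.0486; 4.35%), and their r without E5 and NE1 was 0.143 to 0.813. No member had a slope on the neutrophil score (0.777%) or on the general endothelial score (0.133%) at that threshold by edgeR, although 7 and 3 members had an unadjusted p of at most 0.05, and DESeq2's Wald test gave 3 and 1. The neutrophil result turned on E5, which had a score of 3.69 against 1.42 to 2.40 in the other tumors: without E5, slopes passed for 4 members (Cd300lb, Cd300ld, Cd300ld4 and Cd300lg).

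**Figure D4:**
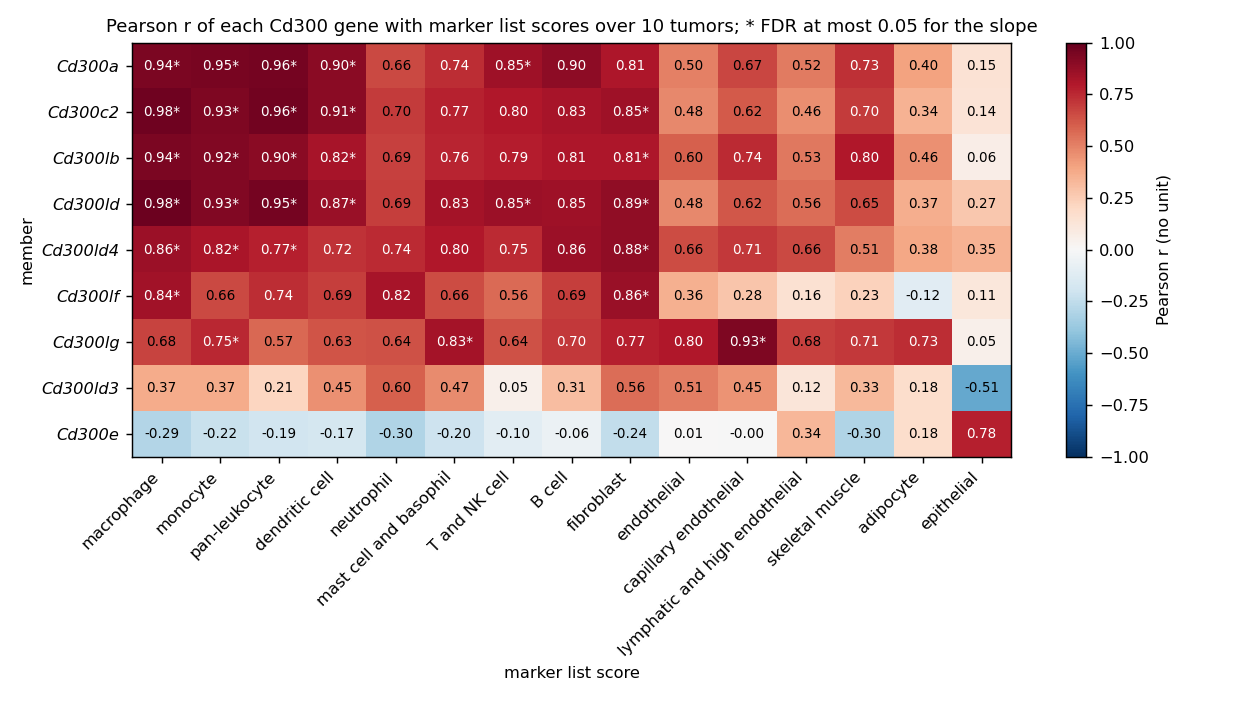
Pearson r over the 10 tumors of each member (y axis) with the scores of 15 marker lists (x axis), with stars where the slope had an FDR of at most 0.05 over all genes. The 5 block genes all have stars on the macrophage, monocyte and pan-leukocyte lists and none on the neutrophil list, Cd300lg has its highest r (0.930) with the capillary endothelial list, and Cd300e has its highest (0.775) with the epithelial list, without a star.

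The inhibitory Cd300lf stood at the edge of the block. Its FPKM were 5.04, 4.73, 4.06, 5.50 and 8.69 in E and 3.10, 4.82, 5.59, 4.215 and 5.23 in NE, with E5 far above and NE1 below the rest. Its r with the 5 block genes was 0.704 to 0.841, and in each pair the larger of the FDR values was 0.121 to 0.303, so that no pair was linked. Without NE4, which had a macrophage score of 7.04 but only 4.215 FPKM of Cd300lf, it was linked with all 5 block genes. Slopes on Cd300lf were rare among all genes (0.222%). Its slope on the macrophage score (0.57 ± 0.118 on the log2 scale, FDR 0.0116, r = 0.840, permutation p = 0.0104, rho = 0.515, permutation p = 0.134) changed with the tumors included: r was 0.238 without E5 and NE1, and the FDR was 0.0963 without NE1. Without NE1 and NE4 together the slope was 0.93 ± 0.146 and passed (FDR 0.0154). With the neutrophil score Cd300lf had r = 0.821 (permutation p = 0.00773, rho = 0.564, permutation p = 0.0959, FDR 0.0777) and r = 0.869 without E5 and NE4. The gene most like Cd300lf was Il1r2, the decoy receptor of interleukin 1 (r = 0.981). Among the 8 neutrophil markers that passed the filter, r with Cd300lf ran from 0.259 (Mmp9) to 0.922 (the receptor gene Csf3r). Camp, which did not pass, had -0.256. Csf3r was not particular to Cd300lf, with r of 0.909 with Cd300c2, 0.898 with Cd300ld and 0.893 with Cd300a. The inhibitory receptors Cd300a and Cd300lf had r = 0.791 with each other (permutation p = 0.00968, rho = 0.649, permutation p = 0.0498), beside 0.978 for Cd300a with the activating Cd300c2, and the difference between these correlations was not tested.

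Cd300lg, known from endothelial cells, had its highest r with the capillary endothelial list. Its FPKM were 0.902, 1.84, 0.851, 1.52 and 2.04 in E and 0.554, 0.664, 0.916, 3.30 and 1.14 in NE, with NE4 above all others. On the capillary endothelial score, the mean of 9 genes such as Aqp1, Meox2, Cd36 and Fabp4, Cd300lg rose by 2.11 ± 0.311 on the log2 scale per unit (FDR 0.00199, r = 0.930, permutation p = 4e-05, rho = 0.952, permutation p = 0.00015). It was the only member with a slope there by this test, where 7.37% of all tested genes had a rising slope. An unadjusted p of at most 0.05 was reached by 6 members, and DESeq2's Wald test gave 4 members. Without E5 and NE4 r was 0.889, and leaving out any single tumor kept the FDR at 0.0161 or less, with a slope of 3.46 ± 0.588 without NE4 and 1.97 to 2.13 without any other tumor. Without NE1 and NE4 together the FDR was 0.0674, and with the replicate number as a block the slope was 1.76 ± 0.537 with an FDR of 0.124. The genes of the list did not contribute alike, with a median r with Cd300lg of 0.687. It was 0.893 for Fabp4 and 0.863 for Cd36, which adipocytes and macrophages also express. It was 0.237 for Rgcc, 0.241 for Tcf15, which did not pass the filter, and -0.045 for Gpihbp1, which capillary endothelium uses to bind lipoprotein lipase. NE4 also had the highest skeletal muscle and adipocyte scores (9.76 and 3.32), and with the skeletal muscle score in the model the slope of Cd300lg on the capillary score was 2.15 ± 0.561 with an FDR of 0.286. With the general endothelial score held, it was 2.08 ± 0.657 (FDR 0.155). The part of muscle or fat tissue in this relation was not tested beyond these values. The ratio of Cd300lg to Cd300ld had r = 0.286 with the capillary score (permutation p = 0.480). Over Cd300a, Cd300lb and Cd300c2 it had r of 0.407, 0.560 and 0.604 (permutation p = 0.259, 0.0916 and 0.0619). Over Cd300ld4 it had r = 0.673 (permutation p = 0.0303) and over Cd300lf 0.825 (permutation p = 0.0212). The slope of Cd300lg was thus not shown to differ from those of Cd300a, Cd300c2, Cd300lb and Cd300ld.

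Over the 15 genes of the general endothelial list the median r with Cd300lg was 0.660. The highest were 0.924 for Ptprb, 0.856 for Vwf and 0.834 for Tek. Cd300lg had low r with Robo4 (0.489), Flt1 (0.378), Erg (0.297), Emcn (0.257) and Eng (-0.317). Its slope on the general endothelial score did not pass (2.23 ± 0.544, FDR 0.0934, r = 0.803, permutation p = 0.00367, rho = 0.636, permutation p = 0.0547), and r was 0.257 without E5 and NE4. Cd300lg also had a slope on the mast cell and basophil score (1.13 ± 0.225, FDR 0.0287, r = 0.830, permutation p = 0.0036, rho = 0.939, permutation p = 0.00021, 2.54% of all genes). With the fibroblast score Cd300lg had rho = 0.952 (permutation p = 8e-05), as high as with the capillary score, and r = 0.774, but its slope did not pass (FDR 0.0515). Its r with the block genes was 0.624 to 0.755, none of these pairs was linked, and 6.33% of all other genes had a slope on Cd300lg. The genes most like it were Adcy2 (r = 0.977), Nrep (0.973) and the smooth muscle myosin gene Myh11 (0.969).

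**Figure D5:**
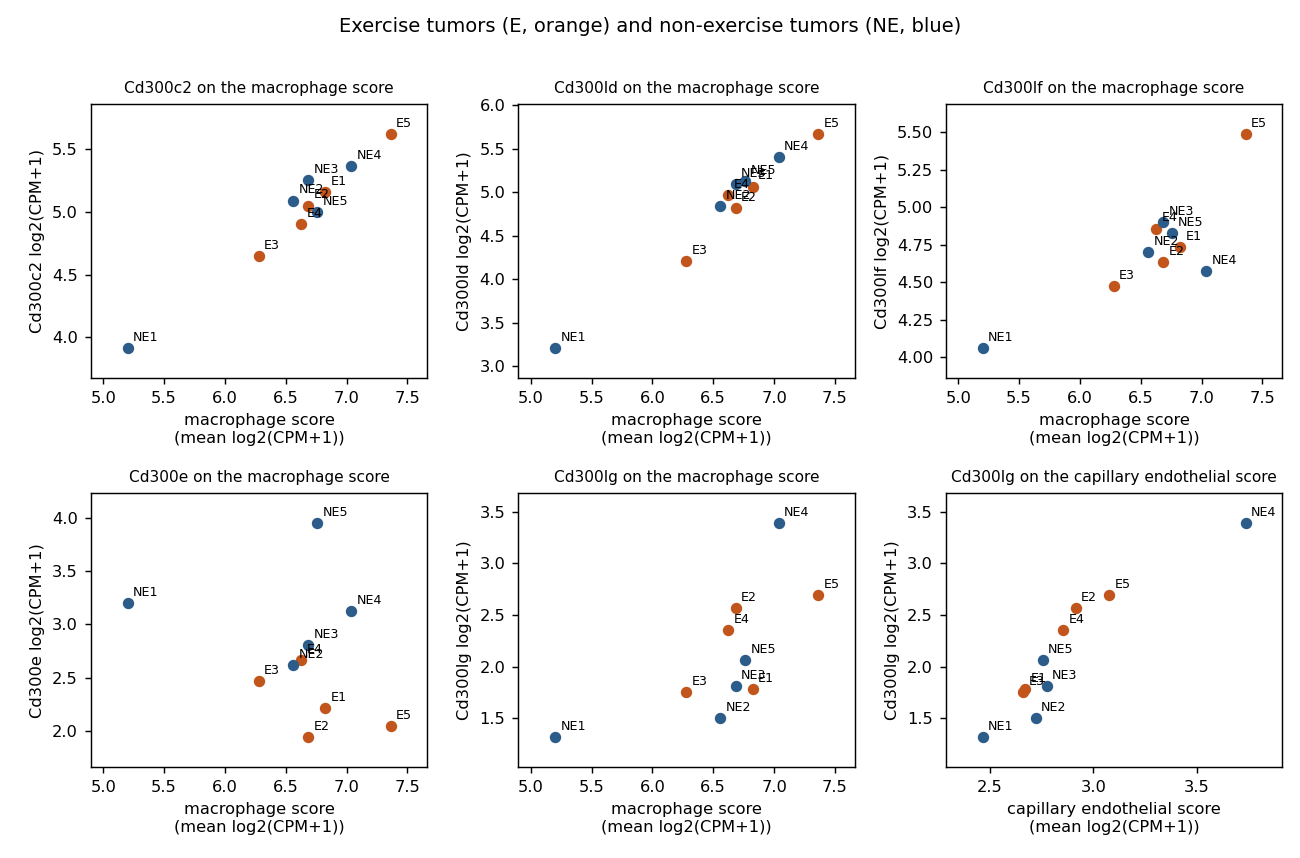
Log2(CPM + 1) of Cd300c2, Cd300ld, Cd300lf, Cd300e and Cd300lg (y axes) against the macrophage score, and of Cd300lg against the capillary endothelial score (x axes), with 1 labelled point per tumor. Cd300c2 and Cd300ld climb with the macrophage score from NE1 to E5, Cd300lf has r = 0.840, or 0.238 without these tumors, Cd300e shows no rise (r = -0.289), and Cd300lg climbs with the capillary score to NE4.

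Cd300e, although it lies inside the gene cluster, was linked with no other member and had no called slope on any score. Its r with the other members ran from -0.591 (Cd300ld3) to 0.057 (Cd300ld4), no pair was linked, and no gene among the 13516 others had a slope on Cd300e at an FDR of at most 0.05 (0.0%; 398 of 13517 genes, Cd300e included, at an unadjusted p of at most 0.05). Its slope was -0.26 ± 0.385 on the macrophage score (r = -0.289, permutation p = 0.398, rho = -0.236, permutation p = 0.513), and r with the monocyte score was -0.223. With the macrophage score removed from each gene, r was 0.610 with Cd300ld and 0.621 with Cd300ld4, and no link was called. NE1, with the lowest macrophage score, held 193 reads of Cd300e, more than any E tumor (48 to 100). The ratio of Cd300e to Cd300ld, the strongest of the Cd300e ratios, fell with the macrophage score (r = -0.856, permutation p = 0.00373, rho = -0.624, permutation p = 0.0605, among 16 ratio relations computed). Cd300ld itself rose with the score (r = 0.984), so this fall adds nothing on Cd300e to its own slope. Without E5 and NE1 r of the ratio was -0.257, so the relation rested on these tumors. With the macrophage score in the model, the log2 fold change of Cd300e between E and NE was -1.08 ± 0.309 (FDR 0.566), close to the value without it. The macrophage score itself did not separate the groups (exact permutation p = 0.516), and Cd300e had no called slope on it. Holding the score could therefore move this value little, and the part of macrophages in the difference of Cd300e was not tested by it.

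Among the genes outside the family most like Cd300e were Xkr6 (r = 0.912, rho = 0.939) and Sp8 (r = 0.879, rho = 0.964), of which Sp8 encodes a transcription factor of limb and nervous system development. Both were low, with means of 3.09 and 2.25 CPM. Of all scores, the epithelial score had the highest r with Cd300e (0.775, permutation p = 0.0147, rho = 0.539, permutation p = 0.114, FDR 0.9998). NE5 was highest in both, with an epithelial score of 2.52 against 0.865 to 1.39 in the other tumors, and r was 0.119 without NE4 and NE5. Among the epithelial markers that passed the filter on low counts, r with Cd300e was 0.855 for Epcam, 0.723 for Krt19 and 0.262 for Cdh1. Among those that did not pass, it was 0.740 for Krt14, 0.720 for Krt5 and -0.047 for Krt8. Without NE5 the log2 fold change of Cd300e between E and NE was -0.79 ± 0.231. The part of epithelial cells in the level of Cd300e was not tested.

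The adaptor and signaling genes of CD300 receptors were correlated with the block. Of 16 such genes, 13 had a rising slope on the macrophage score, beside 8.06% of all genes, and none was called between E and NE (median log2 fold change 0.011, and -0.014 over all tested genes). Tyrobp, which encodes DAP12, had r = 0.983 with Cd300c2, and Fcer1g 0.933. Kinases of this list were alike, with r of 0.953 for Syk, 0.966 for Btk and 0.958 for Fgr. Of the phosphatases that the inhibitory receptors recruit, Ptpn6 and Inpp5d had r of 0.892 and 0.876 with Cd300c2, but Ptpn11, which most cells express, had -0.034. On the score of the 16 genes, slopes passed for the 5 block genes and Cd300lf (FDR 8.1e-05 to 0.04901, 6.87% of all tested genes). For Cd300lf, r with this score was 0.760, and 0.236 without E5 and NE1. With Cd300e the same 16 genes had r between -0.452 (Hcst) and 0.144 (Pik3r1), with -0.280 for Tyrobp.

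Among the genes most like the block members were Il21r and Lrmda for Cd300a (r = 0.989 and 0.983), Cyp4f18, Sirpa and Arhgap4 for Cd300c2 (0.991, 0.989 and 0.988), and Arhgap4, Ctsh and Rassf2 for Cd300ld (0.989, 0.987 and 0.985). Sirpa encodes an inhibitory receptor of macrophages that binds CD47, and Ctsh encodes the lysosomal protease cathepsin H. Cd300lb was nearest to Fst, Nrros and Alox15 (0.987, 0.983 and 0.979), where Fst encodes follistatin and Alox15 a lipoxygenase. Cd300ld4 was nearest to Dclk1, Cd22 and the chemokine gene Ccl8 (0.957, 0.953 and 0.951). Cd300ld3, whose counts were the lowest, was nearest to Flt3l, Mvb12b and Zfp354c (0.890, 0.866 and 0.859). Such values were picked as the highest over all genes tested and describe these 10 tumors alone: 6.61% of the other genes had r of at least 0.8 with Cd300a, and 0.148% had it with Cd300e.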

How the data were processed

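Messenger RNA of 10 tumors (5 E, 5 NE) was measured. The authors aligned reads with Hisat2 and used Stringtie; their methods name a rat reference genome, while the gene identifiers are those of mouse. They deposited 1 table of unnormalized read counts and FPKM, the latter equal to count over length and total (largest relative deviation 3.78e-14). Groups and replicate numbers came from the labels. The sources give 5 mice a group but do not tie tumors to mice; p-values measure the spread between tumors. No 2 tumors agreed within counting noise (chi-square per gene at least 8.51 over 45 pairs).

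From the counts, edgeR 4.0.16 (R 4.3.3; TMM, filterByExpr by group, quasi-likelihood test, Benjamini-Hochberg adjustment over 13517 genes) fitted the group, each marker list score and the log2(CPM + 1) of each member, centred, as the only term. A gene was called between groups at FDR up to 0.05 with a 2-fold or larger difference. A fold change is on the log2 scale of counts; levels are FPKM as deposited. Permutation tests (100000, or exact over 252 assignments or 1024 sign changes) were two-sided (scipy 1.17.1). Depth was 15045613 to 23092251 reads, which limits Cd300ld3 and Cd300ld4; limits from counts of 0 (3 reads) cover counting error only. Correlations over tumors were 144 of members with 16 scores and 36 of pairs, and the FDR of the matching fit is the adjusted value.

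Named genes were the members, the 3 genes outside the family with the highest r to each member among those with a mean of at least 1 CPM, the adaptor and signaling list, and marker genes beside the member they were set against. Some of the genes nearest to Cd300a and Cd300e are not reported here. The members and lists were chosen with earlier results of these data known. Alternatives were DESeq2 1.42.0 (Wald test or size factors), total counts in place of TMM, other filters, covariates and pseudocounts, a replicate block and leaving out tumors. After seeing the data, alternatives for the capillary and monocyte scores, the skeletal muscle covariate and the summed Cd300ld3, Cd300ld4 and Cd300ld5 were added. The models were tested on simulated data. Sequences were aligned with Biopython 1.88 (identity over all alignment columns).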

Additional observations from a re-analysis of the deposited data

Results flagged for a closer look

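In 6 of 28 groups of 5 tumors (9 members and 5 scores in each group), 1 tumor lay so far from the others that its gap to the nearest tumor passed 0.71 of the range (Dixon's test), where chance gives about 1.4. Cd300lg had its highest non-exercise value in NE4, at 9.495 CPM. The macrophage score was lowest among non-exercise tumors in NE1, at 5.199. The neutrophil score was highest among exercise tumors in E5, at 3.685. The endothelial score was highest in E5 among exercise tumors, at 4.222, and in NE4 among non-exercise tumors, at 4.326. The capillary endothelial score was highest among non-exercise tumors in NE4, at 3.733. The tumors that were far out in Cd300lg and in the endothelial lists of the non-exercise group were thus the same, NE4.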

How the results depend on the processing

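The count of members called between E and NE was 0 under 11 other fits and filters, and 1 (Cd300e) where an unadjusted p of at most 0.05 was used; leaving out each tumor gave 0 to 0. Slopes on the macrophage score passed for 6 members, for 4 to 7 under the alternatives and for 4 to 6 without single tumors. On the neutrophil score 0 passed, but 3 did by DESeq2's Wald test, 1 with at least 10 reads in every tumor, 1 without NE1 and NE4, and 0 to 4 without single tumors. On the endothelial score 0 passed, 1 by DESeq2 and 0 to 0 without single tumors. The 10 linked pairs became 16 by DESeq2, 6 with at least 10 reads in every tumor (a filter that removes Cd300ld3 and Cd300ld4), 0 with the macrophage score as a covariate, 4 without NE1 and NE4 (among them Cd300ld with Cd300lf), and 5 to 12 without single tumors. Slopes on the capillary score passed for 1 to 2 members without single tumors. Beyond the filter, the causes were not tested.

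With the replicate number as a block, 6 pairs were linked, 4 members had a slope on the macrophage score, and that of Cd300lg on the capillary score did not pass (FDR 0.124); the log2 fold change of Cd300e was -1.02. Deviations of tumors with the same number had correlations of 0.0355, -0.156, -0.095, -0.325 and 0.316, and only number 5 fitted best to its own; no source used here says that the numbers mark the pairs of which the study speaks, and the correlations gave no sign of it. The sign turned for the group differences of Cd300c2 (-0.11), Cd300lb (-0.098), Cd300ld (-0.17), Cd300ld4 (-0.33) and Cd300lg (-0.12) with the macrophage score as a covariate; after its removal r turned for Cd300c2 with Cd300ld4 (-0.106) among the linked pairs, and for 10 other pairs, such as Cd300lb with Cd300lf (-0.448), Cd300ld with Cd300ld3 (-0.448) and Cd300lf with Cd300lg (-0.431); leaving out single tumors also turned differences near 0, such as that of Cd300a (-0.20 to 0.18). Depth limits Cd300ld3 and Cd300ld4, which had at most 25 and 49 reads a tumor.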

Other observations

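The family genes left out of the tests were low. Cd300c had FPKM of 0 to 0.692, Cd300ld2 of 0.0529 to 0.528 and Cd300ld5 of 0 to 0.546, and Cd300c had no read in NE1. Of the stretches of 50 bases in Cd300ld5, 100% occurred in another family gene. The B cell, adipocyte, skeletal muscle, epithelial and lymphatic lists gave no slope of any member at an FDR of at most 0.05. Of these lists the lowest FDR was 0.0533, for Cd300lb on the skeletal muscle score (r = 0.799, permutation p = 0.00779, rho = 0.745, permutation p = 0.0176, and r = 0.388 without NE1 and NE4). On the B cell score Cd300a had r = 0.898 (permutation p = 0.00042, rho = 0.745, permutation p = 0.0177) with an FDR of 0.0542.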
